A study of Mus musculus with 2 samples.

Results

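The HoxB cluster on mouse chromosome 11 is a row of genes for homeodomain transcription factors that give cells their position along the head-to-tail axis. The stretch described here runs over chr11:95980001-96220000 on build mm8. It was chosen by position alone and holds 120 windows of 2 kb, of the 1285045 windows covered in the series, or 1200 of the 200 bp windows that the authors deposited. The data are counts of sequenced reads from nucleosomes carrying trimethylation of lysine 4 of histone H3 (H3K4me3), from 1 library of a Lsh+/+ mouse embryonic fibroblast (MEF) line, called WT, and 1 library of a Lsh-/- MEF line, called Lsh_KO. Lsh, the product of the Hells gene, is a helicase-like remodeller of chromatin on which the DNA methylation of many repeats and developmental genes depends. In each line, 20000000 cells were digested with micrococcal nuclease, and the precipitated DNA was amplified for 20 cycles and size-selected at 200 to 400 bp. The labels give neither the age of the embryos nor the number of embryos or clones behind a line, and no input library was used here. With 1 library per genotype there is no test of the genotype, and the effect of Lsh cannot be told apart from any other difference between the cell lines or libraries.

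Mammalian Hox genes lie in 4 clusters, HoxA to HoxD, and within a cluster the order of the genes on the chromosome follows the order in which they act along the body axis. Genes at the Hoxb1 end act in the hindbrain, and genes toward Hoxb9 and Hoxb13 act in the trunk and tail. Cultured fibroblasts keep a Hox expression pattern that reflects where in the body they came from. H3K4me3 is deposited at active promoters and also at poised promoters that Polycomb proteins hold silent, and over active Hox genes it often spreads into the gene bodies. Because the mark sits on nucleosomes, its reads outline blocks around start sites rather than single bases.

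Start sites were placed on mm8 from the reads themselves. A read of 25 bases that exactly matched the RefSeq promoter sequence of a gene (GRCm38.p6, 250 bases before to 50 bases after the start) gave the position of that start, and 3 distinct reads with the same offset were required. In the stretch, 3 starts met this rule. Hoxb4, which patterns the posterior hindbrain and neck and promotes the growth of blood stem cells, was placed at position 96134357 by 11 reads. The start of Hoxb3os, an antisense transcript of the Hoxb3 locus, was placed at 96169484 by 28 reads, and that of Gm30134, a long noncoding RNA, at 96019518 by 3 reads. Further starts rest on fewer reads and were added after the data were seen. These are Gm51876, a long noncoding RNA, at 96085141 and Hoxb1, which specifies the fourth hindbrain segment, at 96181848, each with 2 reads, and the hairpin of Mir10a at 96133255 with 1 read. No read matched the promoter of Hoxb8 or the hairpin of Mir196a-1. Of the 10 protein-coding HoxB genes, 3 (Hoxb1, Hoxb4 and Hoxb8) have a promoter in the table. Hoxb2, Hoxb3, Hoxb5, Hoxb6, Hoxb7 and Hoxb9 are therefore named only by their RefSeq order between placed starts. Hoxb13 has no promoter in the table either and lies between none of these starts, so its name gives a direction only.

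The promoters of Hoxb8, Hoxb4 and Hoxb3os are shown because RefSeq places Hoxb8 in the centre of the cluster, where the libraries differed most, and the others where part of the mark was present in both. Each is given 5′ to 3′ on its own strand from RefSeq (GRCm38.p6), with CpG dinucleotides, the sites of DNA methylation, in capitals.
Hoxb8 promoter: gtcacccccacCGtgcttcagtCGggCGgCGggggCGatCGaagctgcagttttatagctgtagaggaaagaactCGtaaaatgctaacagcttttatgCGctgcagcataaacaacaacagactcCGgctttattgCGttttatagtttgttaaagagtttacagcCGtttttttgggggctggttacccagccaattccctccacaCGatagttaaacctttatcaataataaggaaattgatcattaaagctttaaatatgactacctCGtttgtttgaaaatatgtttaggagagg
Hoxb4 promoter: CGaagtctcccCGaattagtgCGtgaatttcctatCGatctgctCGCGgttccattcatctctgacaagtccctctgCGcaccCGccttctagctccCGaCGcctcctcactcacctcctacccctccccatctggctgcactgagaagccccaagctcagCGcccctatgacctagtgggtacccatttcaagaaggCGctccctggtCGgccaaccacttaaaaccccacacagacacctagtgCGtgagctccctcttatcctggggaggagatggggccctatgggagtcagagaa
Hoxb3os promoter: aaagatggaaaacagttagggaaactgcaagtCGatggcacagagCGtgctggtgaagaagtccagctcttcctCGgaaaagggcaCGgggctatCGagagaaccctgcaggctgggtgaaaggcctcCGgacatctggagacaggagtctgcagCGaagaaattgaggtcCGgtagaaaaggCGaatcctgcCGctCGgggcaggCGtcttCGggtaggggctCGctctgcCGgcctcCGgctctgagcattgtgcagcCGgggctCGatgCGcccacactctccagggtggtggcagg
The Hoxb8 promoter holds 13 CpG in 300 bases at a GC content of 42.3%, which gives a ratio of observed to expected CpG of 0.970. The Hoxb4 promoter holds 14 CpG (GC 58.0%, ratio 0.593) and the Hoxb3os promoter 19 (GC 60.7%, ratio 0.710). The Hoxb1 promoter is the poorest of the 4, with 10 CpG and a ratio of 0.380. Over 32841 RefSeq promoters the median GC content was 52.7% and the median ratio 0.384, so 3 of these 4 promoters are richer in CpG than the median promoter and Hoxb1 is close to it. Letters searched on both strands were GGGCGG (held by 35.7% of all promoters), CCAAT (37.4%), TATAAA (13.6%), TGATTGAT (0.746%) and the direct repeat of AGGTCA with a spacer of 5 (0.00914%). The Hoxb8 promoter has TATAAA at 2 places and GGGCGG and CCAAT at 1 place each. The Hoxb1 promoter has CCAAT at 2 places, and the Hoxb4 and Hoxb3os promoters hold none of these.

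The WT library held 2471782 distinct reads (1 kept per position and strand, of 2869399 aligned), and the Lsh_KO library 2790389 of 3428628. Their mean background over windows with few reads was 1.36 reads per 2 kb window in both. Ratios of Lsh_KO to WT were set to a median of 1 over windows that both libraries mark, which divides the raw ratio by 1.42 (scaling by total distinct reads divides it by 1.13). A marked window is one that has 10 reads or more and reaches 5 times the background of its library. A window counted as lower or higher in Lsh_KO if the scaled ratio was 2-fold or more away from 1, the 95% interval of that ratio (exact, conditional on the sum; Clopper-Pearson) did not hold 1, and the sum of both libraries reached 20 reads. Reads were amplified and carry no molecular identifiers, so they are not independent molecules and every interval covers counting error only. Of 6 fibroblast markers 4 have a promoter in the table and 2 were placed. Vim was marked around its start with 126 WT and 201 Lsh_KO reads within 1 kb to each side, and Col3a1, a fibrillar collagen gene, with 31 and 71. Of the markers of epithelium (3 genes), endothelium (2), blood (2), muscle (2) and nerve cells (2), 6 have a promoter in the table and none was placed by 3 reads.

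H3K4me3 over the HoxB stretch was much lower in the line without Lsh. WT had 1222 reads in the stretch, 0.0494% of its distinct reads (Clopper-Pearson interval 0.0467% to 0.0523%). Lsh_KO had 558 reads, or 0.0200% (0.0184% to 0.0217%), although its library was the deeper of the pair. The scaled log2 ratio over the whole stretch was -1.64. The background in the 5 Mb around the stretch was slightly higher in Lsh_KO, at 2.46 reads per window in WT and 2.69 in Lsh_KO, a ratio of 1.09. Among unscaled counts, 72 windows had more reads in WT, 41 had more in Lsh_KO and 7 had the same number.

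Fewer windows were marked in Lsh_KO as well. The WT library marked 23 of the 120 windows and the Lsh_KO library 5. Only 4 windows were marked in both, so 17.4% of the windows marked in WT were also marked in Lsh_KO, against 81.6% over the genome (18150 of 22255 windows). Of the 20 windows in the stretch that could be tested, 19 were called lower in Lsh_KO, and none was called higher. Over the whole genome 5.8% of 21163 tested windows were called lower and 3.45% higher, and the median log2 ratio was 0.02. With scaling by total reads the genome-wide shares were 3.45% lower and 8.68% higher, and 18 windows of the stretch were called lower and none higher. The exception among the 20 was the window of the Hoxb4 start (96134001-96136000), with 58 reads in WT and 50 in Lsh_KO. After scaling it was 1.65-fold lower (1.11 to 2.46), short of the 2-fold rule.

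**Figure D1:**
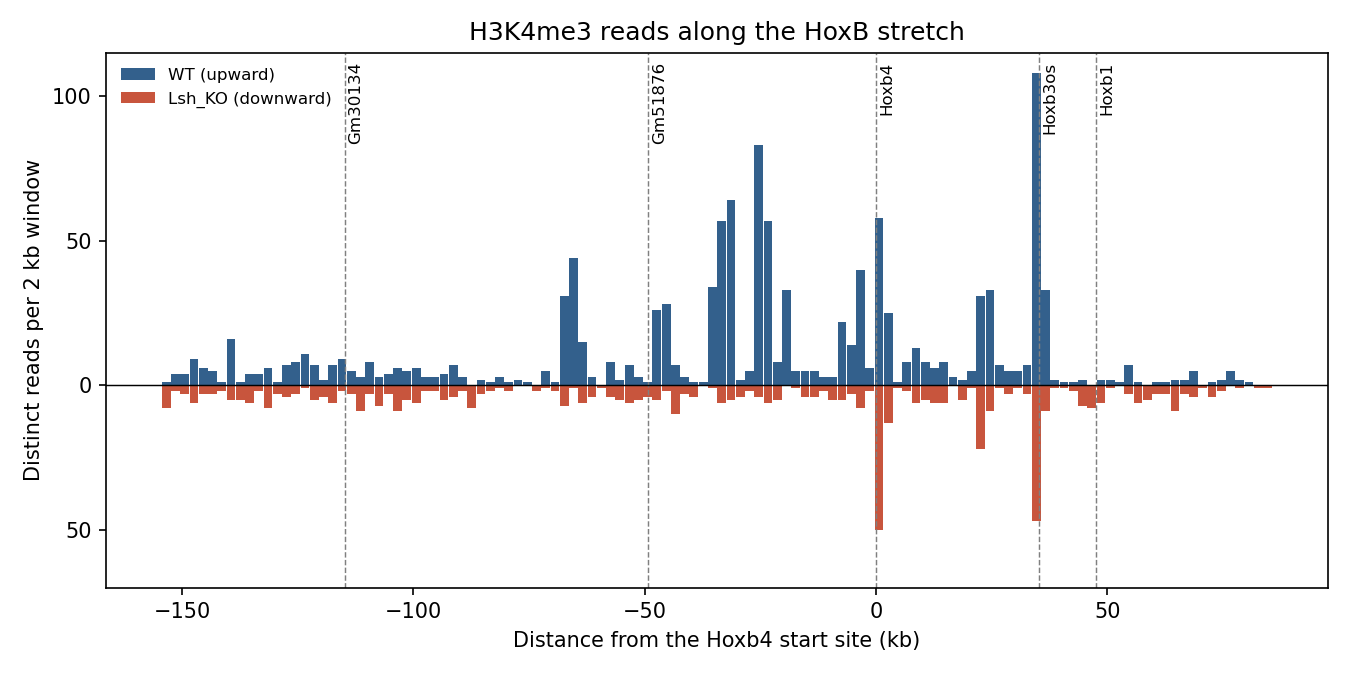
Distinct reads per 2 kb window along the HoxB stretch, WT drawn upward and Lsh_KO downward, against the distance from the Hoxb4 start in kb; dashed lines mark placed starts. Between Gm51876 and Hoxb4 the WT bars reach 83 reads and no Lsh_KO bar passes 10, while tall Lsh_KO bars stand at Hoxb4 (50 reads) and beside Hoxb3os (47 reads).

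The difference was uneven along the cluster. The segment from Gm51876 to Hoxb4 is the centre of the cluster, where RefSeq lists Hoxb9, Hoxb8, Hoxb7, Hoxb6, Hoxb5 and the antisense transcript Hoxb5os. These are genes of the trunk: Hoxb9 shapes the rib cage, Hoxb8 acts in the spinal cord and in blood precursors, and Hoxb5 to Hoxb7 act at the level of the neck and chest. Here WT had 521 reads and Lsh_KO 98, a 7.56-fold lower level in Lsh_KO (interval 6.08 to 9.47). The segment had 11 marked windows in WT and 1 in Lsh_KO, and all 10 tested windows were called lower.

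Within those 11 marked windows, WT had a mean of 41.6 reads per window (lowest 14, median 34, highest 83). Lsh_KO had a mean of 4.09 reads (Poisson interval 2.98 to 5.47, lowest 0, highest 8). These windows were chosen by their WT reads, which fixes the lower end of the WT range and leaves out the window marked only in Lsh_KO, so the gap between the ranges carries no weight of its own. The 96 windows of the stretch unmarked in both libraries averaged 3.53 reads in WT and 3.41 in Lsh_KO (3.05 to 3.80). The interval of the Lsh_KO level under the WT marks thus overlapped that of its level in unmarked windows of the stretch. Both intervals lay above the mean Lsh_KO background, 1.36 reads per window over the genome and 2.69 in the 5 Mb around the stretch. The overlap therefore does not show a fall to background.

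From Hoxb4 to Hoxb3os, the part of the cluster with Hoxb3 and Hoxb2, which act in the hindbrain, the difference was smaller. WT had 298 reads and Lsh_KO 166, 2.55-fold lower (2.10 to 3.10), an interval that does not meet that of the segment from Gm51876 to Hoxb4. Marked windows numbered 6 in WT and 4 in Lsh_KO, and 4 of 5 tested windows were called lower. Between Hoxb3os and Hoxb1, WT had 66 reads and Lsh_KO 38, 2.47-fold lower (1.63 to 3.78). This segment begins inside the marked windows at Hoxb3os. The 1 window tested there adjoins the Hoxb3os start, with 33 WT and 9 Lsh_KO reads, and was called lower. The 5 unmarked windows averaged 1.20 reads in WT and 3.80 in Lsh_KO. The lower level of the segment thus comes from its Hoxb3os end and does not describe the part toward Hoxb1.

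Beyond Hoxb1 neither library marked a window. WT had 35 reads and Lsh_KO 53 over 38.2 kb, a scaled ratio of 1.07 (0.683 to 1.68), or 1.34 (0.859 to 2.12) when scaled by total reads. No difference was detectable at this end of the stretch at this depth, and 11 of its 19 windows had more reads in Lsh_KO.

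On the other side of the cluster, which runs toward Hoxb13, the stretch up to Gm30134 had 111 WT and 81 Lsh_KO reads, 1.95-fold lower (1.45 to 2.63). From Gm30134 to Gm51876, where RefSeq lists Gm11538, Gm11539, Gm53 and Mir196a-1, the libraries had 191 and 122 reads, 2.23-fold lower (1.76 to 2.82). Without scaling, the unmarked windows of these segments averaged 4.78 and 3.33 reads in WT against 4.17 and 3.67 in Lsh_KO. Such windows were 18 of 20 and 30 of 33, so the fold values here depend on a scaling taken from marked windows. Scaled by total reads the 2 segments were 1.55-fold and 1.77-fold lower. Scaled by background their ratios were 0.729 (0.541 to 0.980) and 0.638 (0.504 to 0.805).

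**Figure D2:**
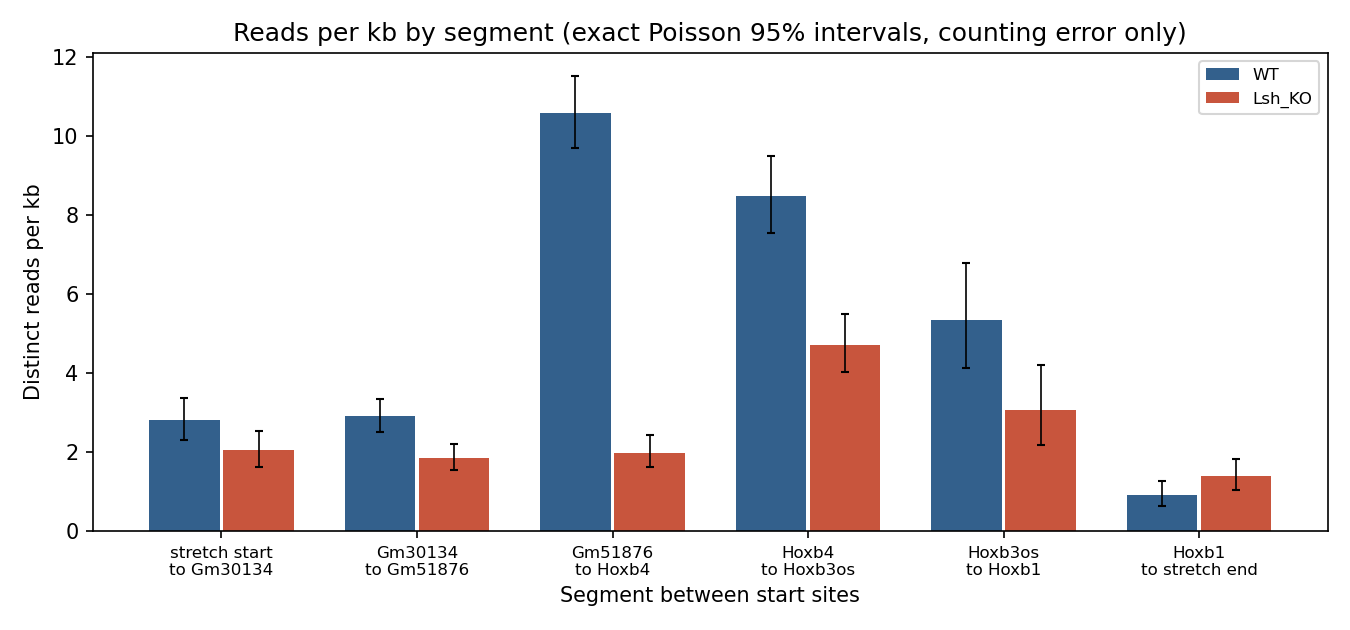
Distinct reads per kb in WT and Lsh_KO for each segment between placed starts, unscaled, with exact Poisson 95% intervals as bars of error. WT is highest from Gm51876 to Hoxb4 at 10.6 reads per kb, where Lsh_KO has 1.99, whereas beyond Hoxb1 Lsh_KO (1.39) lies above WT (0.917).

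Adjoining marked windows were joined into 12 peaks, given here from the Hoxb13 side. Toward Hoxb13, the WT-marked single window at 95994001-95996000 had 16 WT and 5 Lsh_KO reads, and that at 96010001-96012000 had 11 and 1. The latter was too thin to test: it was 15.6-fold lower (2.27 to 673) in distinct reads but 3.24-fold lower, with 17 and 7 reads, in the deposited window counts. The third peak, at 96066001-96072000 between Gm30134 and Gm51876, had 90 WT and 14 Lsh_KO reads, 9.14-fold lower (5.17 to 17.4). It lies 65.4 kb before the Hoxb4 start, and no placed gene starts in it.

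Between Gm51876 and Hoxb4 lay 5 peaks. The peak at 96086001-96092000 had 61 WT and 17 Lsh_KO reads, 5.10-fold lower (2.94 to 9.31). Its last window, with 7 WT and 10 Lsh_KO reads, was the 1 window of the stretch marked in Lsh_KO and not in WT. The next peaks, at 96098001-96104000 with 155 against 12 reads and at 96108001-96112000 with 140 against 10, had the largest numbers of WT reads before Hoxb4. They were 18.4-fold (10.2 to 36.3) and 19.9-fold (10.5 to 42.4) lower in Lsh_KO.

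At 96114001-96116000 WT had 33 reads and Lsh_KO had none. Against a floor of 3 reads in the library this is 15.6-fold lower, a value set by the floor and not a lower bound. The exact upper limit of the log2 ratio is -3.59, which allows a smaller difference than the floor gives. The peak just before Hoxb4, at 96126001-96132000, had 76 and 16 reads, 6.75-fold lower (3.90 to 12.4). Fold values of the peaks in this segment thus ran from 5.10 to 19.9. The 5.10-fold value next to Gm51876 includes the window marked only in Lsh_KO. The windows marked in WT there had 26 against 5 reads and 28 against 2, 7.39-fold and 19.9-fold lower. The interval of the peak just before Hoxb4 overlaps those of the peaks at 96098001-96104000 and 96108001-96112000, so no order among the peaks was established.

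From Hoxb4 onward the peaks kept part of their reads in Lsh_KO. The peak over Hoxb4 at 96134001-96138000 had 83 WT and 63 Lsh_KO reads and was 1.87-fold lower (1.33 to 2.64), the smallest difference of the 12 peaks. At 96142001-96144000 there were 13 and 6 reads. The peak at 96156001-96160000, between Hoxb4 and Hoxb3os, had 64 and 31 reads, 2.93-fold lower (1.88 to 4.66). The peak over Hoxb3os at 96168001-96172000 had 141 and 56 reads, 3.58-fold lower (2.61 to 4.97). These intervals lie below those of both peaks between 96098001 and 96112000. Against the peaks at 96086001-96092000 (2.94 to 9.31) and 96126001-96132000 (3.90 to 12.4), only the interval of the peak over Hoxb4 lies apart. Those of the peaks at 96142001-96144000 (1.09 to 9.88), 96156001-96160000 and 96168001-96172000 overlap them.

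**Figure D3:**
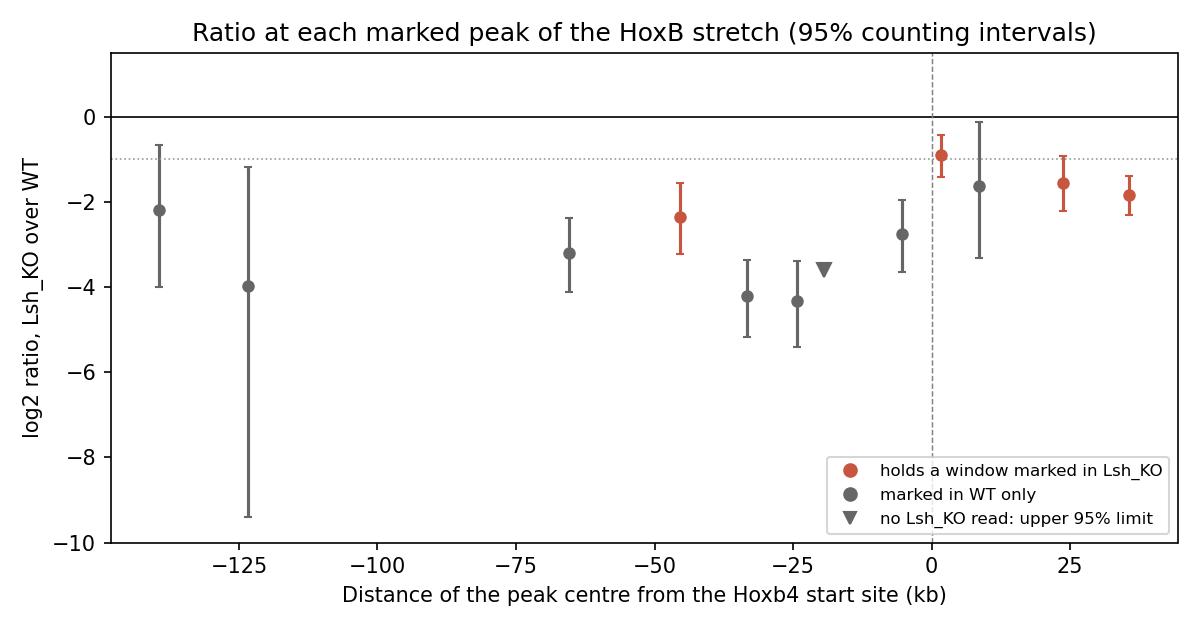
Scaled log2 ratio of Lsh_KO to WT at each of the 12 marked peaks with its 95% counting interval, against the distance of the peak centre from the Hoxb4 start in kb; the dotted line is a 2-fold lower level. The deepest points with many reads lie at -33.4 and -24.4 kb (log2 ratios -4.20 and -4.31), and the peak over Hoxb4 lies closest to 0 (-0.90); the point at -123 kb rests on 11 and 1 reads and was not repeated by the further reads; the triangle is the upper limit of the peak without Lsh_KO reads.

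Of the called windows, the 5 whose intervals lie farthest from 1 were all on the Hoxb13 side of Hoxb4. The window at 96108001-96110000 had 83 WT and 4 Lsh_KO reads, 29.5-fold lower (11.1 to 111). The window at 96102001-96104000 had 64 and 5 reads, 18.2-fold lower (7.40 to 57.9). The windows at 96068001-96070000 and 96098001-96100000 had 44 and 34 WT reads and 1 Lsh_KO read each, and the 5th is the window without Lsh_KO reads at 96114001-96116000. A single read in Lsh_KO leaves a wide interval: for 44 against 1 read the ratio is 62.5-fold with an interval from 10.7 to 2525.

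Regions were also drawn from the authors' 200 bp windows that hold 6 reads or more, bridging gaps of 1 kb or less and dropping regions under 20 reads. This gave 10 regions in WT and 3 in Lsh_KO. The WT regions covered 24400 bp and were 1000 to 5000 bp wide, and the Lsh_KO regions covered 5200 bp and were 1400 to 2000 bp wide. All 3 Lsh_KO regions overlapped WT regions, and 7 WT regions had no partner. At Hoxb4, the WT region spanned 96134001-96137000 and the Lsh_KO region 96134201-96136200. Between Hoxb4 and Hoxb3os, both libraries had a region from 96156801, with its summit in the same 200 bp window. At Hoxb3os, the regions spanned 96168001-96170800 in WT and 96168001-96169800 in Lsh_KO. Where Lsh_KO had a region, it was thus narrower than that of WT and lay inside it. The cut of 6 reads was the same in both libraries and was not scaled. As Lsh_KO had fewer reads in these regions, their width is not separate from the lower counts.

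The longest runs of bases covered by WT reads in 4 of these regions are shown to let a reader see what DNA was marked. They are the mm8 reference letters, plus strand, restored from the reads and their match codes, with CpG in capitals; the first 3 regions had no Lsh_KO partner and the last had one.
96087752-96087857: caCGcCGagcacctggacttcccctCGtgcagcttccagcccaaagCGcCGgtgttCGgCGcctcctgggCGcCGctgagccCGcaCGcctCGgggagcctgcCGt
96103092-96103222: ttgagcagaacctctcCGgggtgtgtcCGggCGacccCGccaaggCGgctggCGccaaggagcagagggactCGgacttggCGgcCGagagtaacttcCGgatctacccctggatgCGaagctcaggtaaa
96115408-96115487: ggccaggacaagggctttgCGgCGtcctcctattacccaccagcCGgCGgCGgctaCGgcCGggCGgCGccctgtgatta
96169139-96169291: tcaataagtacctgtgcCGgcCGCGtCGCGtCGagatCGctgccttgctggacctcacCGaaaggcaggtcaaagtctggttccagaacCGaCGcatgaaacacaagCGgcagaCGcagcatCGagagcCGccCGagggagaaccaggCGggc
The run at 96103092-96103222 was crossed by 12 WT reads and 1 Lsh_KO read. It contains tacccctggatg, which in this frame spells the hexapeptide core, a short motif found in most HOX proteins through which they bind PBX cofactors. The same letters were read at 96135280-96135291, 0.92 kb after the Hoxb4 start, with 2 WT and 3 Lsh_KO reads over them. In the run at 96169139-96169291, crossed by 18 WT and 9 Lsh_KO reads, the bases TGGTTCCAGAACCGACGCATGAAA spell a conserved stretch of the DNA-recognition helix of homeodomains. The search covered codons of both motifs on both strands in the 12.9% of the stretch covered by reads. In RefSeq promoters, 0.0152% hold codons of the hexapeptide core and 0 of 32841 those of the helix. These matches are a description of letters, and no gene was assigned to a run.

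CpG content did not separate the regions with and without a partner. The 7 WT regions without one had ratios of observed to expected CpG from 0.413 to 0.804 in the bases read, and the 3 with one had 0.617, 0.647 and 0.674. Every region was read over 28.0% to 62.4% of its length, and overlapping reads gave 0 conflicting reference bases.

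Around the Hoxb4 start, within 1 kb to each side, WT had 39 reads and Lsh_KO 28. The log2 ratio was -0.99, or 1.98-fold lower (1.19 to 3.34), just short of the 2-fold rule. Its size depends on the scaling. Scaled by total reads the log2 ratio was -0.65, and the peak over Hoxb4 was 1.49-fold lower (1.06 to 2.10). Around the Hoxb3os start the counts were 100 and 43, 3.31-fold lower (2.29 to 4.84) when scaled by marked windows, which was called. Over the genome, 8559 placed starts could be tested, of which 3.14% were called lower and 1.94% higher, with a median log2 ratio of 0.05. A placed start needs reads to match it, so starts without the mark are missing from these counts. The starts of Gm30134 (11 and 3 reads), Gm51876 (1 and 6), Hoxb1 (1 and 9) and Mir10a (13 and 5) held too few reads to test. Hoxb1, where WT had 1 read and Lsh_KO 9, was 6.33-fold higher with an interval from 0.878 to 278, so that no difference was detectable there.

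The reads at Hoxb4 lay mostly after the start. WT had 10 reads in the 1 kb before the start, 29 in the 1 kb after it and 46 in the following 2 kb, and Lsh_KO had 6, 22 and 35. Farther upstream, 1 to 3 kb before the start, WT had 13 reads and Lsh_KO 2. From the start onward the scaled counts were 1.87-fold lower in Lsh_KO, both in the 1 kb after it (1.04 to 3.42) and in the following 2 kb (1.18 to 2.99), and 1 to 3 kb upstream they were 9.24-fold lower (2.09 to 84.3). At Hoxb3os the reads lay on both sides. WT had 42 reads in the 1 kb before and 58 in the 1 kb after, and Lsh_KO had 14 and 29, 4.26-fold (2.28 to 8.45) and 2.84-fold (1.79 to 4.60) lower.

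**Figure D4:**
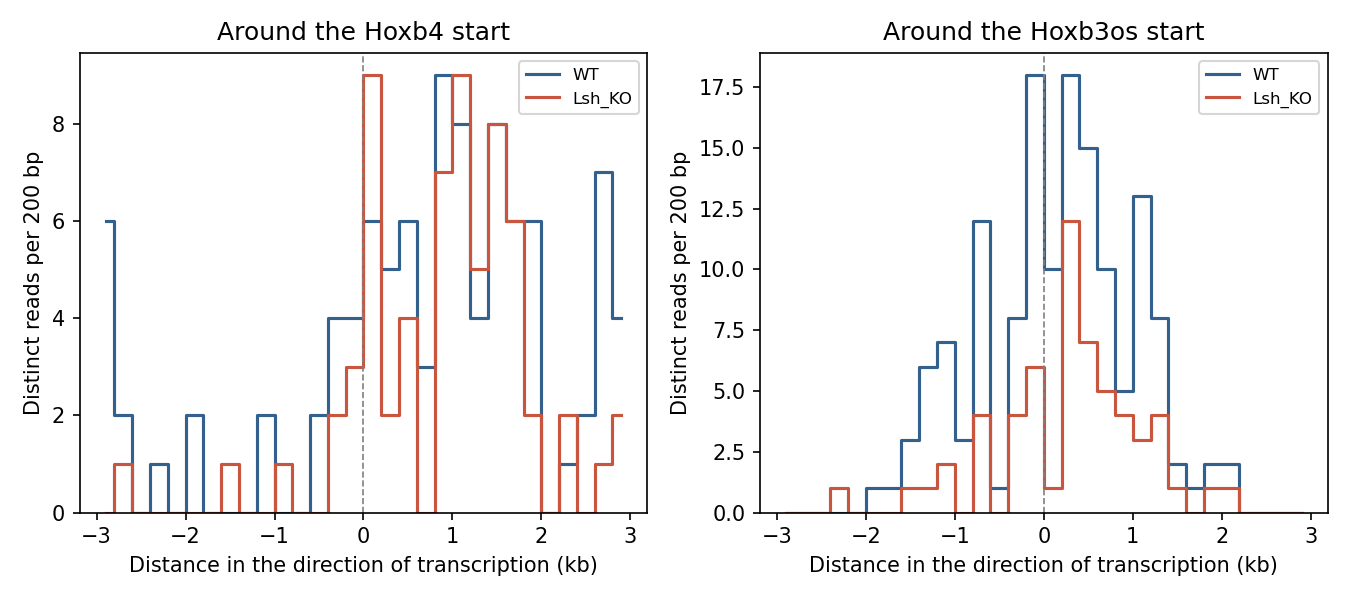
Distinct reads per 200 bp in WT and Lsh_KO within 3 kb of the Hoxb4 and Hoxb3os starts, unscaled, in the direction of transcription. At Hoxb4 both lines reach 9 reads after the start, and at Hoxb3os the WT line reaches 18 reads against 12 for Lsh_KO.

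Placed starts of the other Hox clusters did not follow one direction. In HoxA, 4 of 11 genes were placed and tested, with 1 called lower (Hoxa2, 42 WT and 21 Lsh_KO reads) and 1 called higher (Hoxa3, 21 and 83), and a median log2 ratio of 0.42. In HoxC, 1 of 9 genes was placed (Hoxc4, 15 and 10 reads, not called). In HoxD, 5 of 9 were placed and 2 tested, with 1 called higher (Hoxd3, 8 and 40), and the lowest ratio was at Hoxd11 (11 and 4 reads, too few to test). The HOX cofactors of the PBX, MEIS and PKNOX families bind DNA together with HOX proteins. Of these genes 4 of 8 were placed and tested and none was called, with a median log2 ratio of -0.28 and values from Pbx2 (69 and 76 reads, log2 ratio -0.37) to Meis1 (55 and 128, log2 ratio 0.71). In HoxB 1 of 10 protein-coding genes was placed, Hoxb4.

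The window lists that the authors deposited hold further reads beyond the distinct reads, 1598335 for WT and 1759904 for Lsh_KO. No source used here gives their origin. The lists sum to 4070117 and 4550293 reads, against 2869399 and 3428628 aligned reads. The further reads can therefore include repeats of reads already counted. They were used as a second count of each library, which may not be independent of the first, and they are no replicate of the lines. Over the stretch they numbered 870 in WT and 298 in Lsh_KO, 4.18-fold lower (3.66 to 4.78). From Gm51876 to Hoxb4 they numbered 399 and 51, 11.2-fold lower (8.35 to 15.3), and from Hoxb4 to Hoxb3os 179 and 97, 2.64-fold lower (2.05 to 3.42). Beyond Hoxb1 they numbered 24 and 35, a ratio of 1.02 (0.589 to 1.79). Other segments differed more in these reads than in the distinct reads. Between Hoxb3os and Hoxb1 they numbered 58 and 14, 5.93-fold lower (3.27 to 11.5) against 2.47-fold, and from Gm30134 to Gm51876 145 and 61, 3.40-fold lower (2.51 to 4.67) against 2.23-fold. Up to Gm30134 they numbered 65 and 40, 2.33-fold lower (1.54 to 3.54). In the thin peak at 96010001-96012000 they numbered 6 in each library, a ratio of 0.699 (0.187 to 2.61), which does not repeat the lower count of distinct reads. Of the 19 windows called lower, 14 held at least 20 further reads in both libraries together, all 14 were lower again and 13 met the rule again.

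The share of distinct reads with a mismatch to the reference was 15.8% in WT and 14.3% in Lsh_KO, against 15.6% and 15.2% over the genome. Reads that repeated a position and strand made up 19.5% of all WT reads in the stretch and 9.12% of Lsh_KO reads, against 13.9% and 18.6% over the genome. Repeats were thus more frequent in the stretch for WT and less frequent for Lsh_KO, and keeping them gave a log2 ratio of -1.90 over the stretch.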

How the data were processed

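H3K4me3-bound DNA was sequenced from 1 WT and 1 Lsh_KO library. The authors deposited, per library, the aligned 25-base reads, each with an alignment score, and whole-number read counts of 200 bp windows, on mm8 per the submitters' processing notes. The aligner and the rule behind the window counts are not given in the sources used here. When reads taken once per position and strand were moved 100 bp from their leftmost base, 0 deposited windows fell below the resulting counts.

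Reads sharing a position and strand were counted once, shifted 75 bp toward the fragment centre, and counted in 2 kb windows, segments, and 1 kb to each side of starts. The deposited score was not used to filter reads. Nothing in the labels gives replicate cultures.

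No mm8 genome was used here, and no RefSeq coordinate was taken over: 9266 of 27025 genes with a promoter in the RefSeq table were placed by exact read matches. The genes named are those of the HoxB cluster and others placed in the stretch. Of the other Hox clusters and the cofactors, members called, placed alone, or with the highest or lowest ratio are named. The windows named in full are the 5 called windows with intervals farthest from 1, and other windows and peaks were chosen after their values were seen. The stretch, the gene lists and the rules were chosen with earlier results of these data known. The segments, joined peaks, read-covered runs, codon search, starts placed by fewer than 3 reads and use of the further reads were added after the data were seen.

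The rule for calls was tested on simulated data. Alternatives covered scaling, repeats, read shift, depth, read source, mismatches, window size and phase, the minimum of reads, the width around starts and the region rules. Tools were scipy 1.17.1, pandas 2.3.3, numpy 2.4.6 and matplotlib 3.10.9 under Python 3.11.15.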

Additional observations from a re-analysis of the deposited data

How the results depend on the processing

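No alternative reversed a direction among the results that had one in the main count, apart from the uncalled segment beyond Hoxb1, at log2 ratios from -0.17 to 0.42. The log2 ratio over the whole stretch was -1.31 when scaled by total reads, -1.82 when scaled by the marked windows of chromosome 11 and -1.90 with repeats kept. Scaling by total reads gave -2.59 from Gm51876 to Hoxb4 and -1.02 from Hoxb4 to Hoxb3os. The number of windows marked in Lsh_KO was 9 with repeats kept and 20 with the deposited window counts, where 48 were marked in WT. These counts hold more reads per window while the minimum of 10 reads stays the same. With them 1 window, at 96198001-96200000, was called higher; it was named after its values were seen. Requiring 40 reads in both libraries together left 10 windows called lower, as fewer windows could be tested. The other 48 values of the main results and 76 of segments and starts stayed within counting error or, for counts, within 1.5 times. With 1 library per group no paired analysis was possible, and no library could be left out. Depth limits the segment beyond Hoxb1 and the starts of Hoxb1, Gm51876, Gm30134 and Mir10a, where single libraries held 1 to 13 reads around a start.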
